A study of Mus musculus with 62 samples.

Results

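The H/ACA small nucleolar RNA (snoRNA) and small Cajal body RNA (scaRNA) genes were described in mouse hippocampus and in HT-22, an immortalised line of hippocampal neurons from the mouse. Members were the gene rows whose name starts with Snora or Scarna and whose mean TPM (transcript abundance relative to a fixed library total) was at least 1 over the 31 long-RNA libraries. This left 47 of the 51 rows with such a name, among 53975 gene identifiers in all. Of these, 38 are Snora genes and 9 are Scarna genes. The members were chosen by their mean TPM, so their levels are given below as a description, and tests were made on differences between groups. Just inside the limit lay a Snora43 gene (ENSMUSG00000097052) at a mean of 1.00 TPM, Snora35 at 1.01 and Snora33 at 1.07. Just outside lay Snora36b at 0.569, Snora65 at 0.382 and Snora75 at 0.376, and a second Snora16a row (ENSMUSG00000105911) that covers nearly the same bases as the member Snora16a (ENSMUSG00000065097) had a mean of 0.00122.

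H/ACA RNAs fold into paired hairpins and carry a protein core of dyskerin (Dkc1), Nop10, Nhp2 and Gar1. The RNA base-pairs with a target, and dyskerin converts a chosen uridine to pseudouridine. Snora RNAs act mainly on ribosomal RNA in the nucleolus, and scaRNAs act on spliceosomal small nuclear RNAs in Cajal bodies. Most vertebrate members are cut out of introns of host genes, many of which encode ribosomal proteins or translation factors. The scaRNAs are a mixed family, since some are box C/D guides of 2'-O-methylation and some combine both box types.

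Hippocampi came from mice with the App NL-G-F allele (APP below), a humanised App gene with familial Alzheimer mutations at its own locus, and from C57BL/6J mice (WT). There were 3 APP libraries at each of 3, 6 and 12 months, 2 WT libraries at 3 months, and 3 WT libraries at each of 6 and 12 months. HT-22 cells, at passage 4, had an LNA oligonucleotide for 24 h before 30 uM of a peptide was added. The LNA was either anti-Hsf1 at 150 nM or a scramble LNA whose dose the labels give as 50 uM, and the peptide was amyloid beta 1-42 or its reversed sequence. Scramble groups held 4 libraries for each peptide and anti-Hsf1 groups held 3. All 31 libraries were made from fragmented long RNA after ribosomal RNA depletion, and separate short-RNA libraries were not used here. The labels do not say that the HT-22 libraries came from separate cultures, so their p-values measure only the spread between these samples.

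Values below are scaled TPM, which is TPM divided by a median-of-ratios factor of each library. The factors ran from 0.521 to 1.05 in hippocampus and from 0.919 to 1.77 in HT-22 cells. Protein-coding genes held 36.2% to 51.0% of TPM in APP mice at 6 months and 26.6% to 28.5% in WT mice of that age. Reads per gene are not in the files, and the median coverage of the members ran from 1.87 to 15.03 reads per base over the libraries. Xist, the X-inactivation RNA, was at 95.6 to 191.9 scaled TPM in all APP libraries and in WT libraries of 3 months, where the Y-linked Eif2s3y was listed at 0. In the older WT libraries (6 and 12 months) the levels were 0.362 to 0.709 for Xist and 26.4 to 35.6 for Eif2s3y, so genotype and sex cannot be told apart at those ages, nor age and sex in WT. Hsf1 itself was at 30.0 to 42.9 scaled TPM with scramble LNA and 29.9 to 36.4 with anti-Hsf1 LNA under the reverse peptide. Under amyloid beta the ranges were 34.1 to 49.5 and 30.1 to 35.6, and neither difference passed (limma adjusted p = 0.96 and 0.52).

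The sequences of the genes that carry the results below are shown first, so that the box elements can be seen. They were read from the GRCm38 genome at the coordinates in the deposited tables, in the direction of transcription, and written as DNA. In the 6 Snora genes the capitals mark an H box (ANANNA) near the middle of the gene and the ACA with 2 to 4 bases after it at the 3' end. In Scarna9 they mark a C box (TGATGA) near the start and a D box (CTGA) near the end.
Snora34 (chr15:98519716-98519853, minus strand, in an intron of Kansl2): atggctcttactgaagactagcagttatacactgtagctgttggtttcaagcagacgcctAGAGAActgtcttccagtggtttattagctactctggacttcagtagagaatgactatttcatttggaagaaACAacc
Snora2b (chr15:98526346-98526482, minus strand, in the same host): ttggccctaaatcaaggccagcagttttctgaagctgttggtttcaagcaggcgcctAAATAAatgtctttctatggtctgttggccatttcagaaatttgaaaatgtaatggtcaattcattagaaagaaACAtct
Snora3 (chr7:109520120-109520251, plus strand, in Rpl27a): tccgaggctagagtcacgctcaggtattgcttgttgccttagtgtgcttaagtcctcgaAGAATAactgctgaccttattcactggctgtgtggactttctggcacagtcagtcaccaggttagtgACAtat
Snora73a (chr4:132352775-132352979, minus strand, in Snhg3 and Rcc1): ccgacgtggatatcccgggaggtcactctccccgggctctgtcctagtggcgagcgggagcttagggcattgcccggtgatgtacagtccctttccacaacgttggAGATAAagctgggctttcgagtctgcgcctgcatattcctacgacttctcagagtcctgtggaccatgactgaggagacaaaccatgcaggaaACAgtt
Snora73b (chr4:132352322-132352526, minus strand, in Snhg3 and Rcc1): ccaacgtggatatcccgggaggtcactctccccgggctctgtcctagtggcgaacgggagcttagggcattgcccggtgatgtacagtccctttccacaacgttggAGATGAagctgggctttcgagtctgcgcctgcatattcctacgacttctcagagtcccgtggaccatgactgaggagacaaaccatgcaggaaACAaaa
Snora35 (chrX:146994381-146994508, plus strand, in an intron of Htr2c): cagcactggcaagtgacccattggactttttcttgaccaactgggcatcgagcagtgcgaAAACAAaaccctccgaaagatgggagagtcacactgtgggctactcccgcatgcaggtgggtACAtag
Scarna9 (chr9:15326264-15326333, minus strand, in an intron of Cep295): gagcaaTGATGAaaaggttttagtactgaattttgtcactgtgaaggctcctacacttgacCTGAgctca

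Snora73a and Snora73b, copies of the U17 RNA that takes part in cleavage of the ribosomal RNA precursor, are identical at 198 of 205 bases (96.59%). Reads could be split between the 2 genes in a way the tables do not show, so their separate values are uncertain. Snora34 and Snora2b share 100 bases, 72.99% of the shorter gene, and Scarna3a and Scarna3b share 86.33%. For 13 members, Snora3 among them, another stretch of the genome matches at least 90% of the gene at 95% identity or more.

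The ACA element with 2 to 4 bases after it, on the transcribed strand, was present in 36 of 38 Snora members and in 4 of 9 Scarna members. Over all members the share was 85.11%, against 14.67% of 5765 other genes of 100 to 300 bases and 3.175% of the Snord (box C/D) genes. With an H box as well, the shares were 78.72% of members and 11.71% of the other genes. The H box letters alone were common, at 89.36% of members and 69.31% of the other genes. TGATGA in the first 25 bases together with CTGA in the last 15 occurred in 4 Scarna members (Scarna6, Scarna9, Scarna10 and Scarna17) and in none of the Snora members. The name H/ACA thus matches the letters of the Snora members, and the Scarna members are called scaRNAs below. A match of letters is a description and not a mapped box.

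Most members are short genes inside host genes. Their median length was 134 bases, from 70 for Scarna9 to 414 for Scarna2, and 45 of 47 were under 300 bases. A host on the same strand was found for 41 members. Of these, 20 lay in an intron of every host transcript, 20 overlapped an exon of at least 1 host transcript, and 1 was not matched. Hosts with a ribosomal protein name held 10 members, and the noncoding small nucleolar RNA host genes (Snhg genes and Dancr) held 11. Scarna2, Scarna17, Snora17, Snora57 and both Snora43 genes had no host on their strand. The Snora43 genes cover nearly the same bases on the same strand, so this locus is counted more than once among the members.

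Scarna2, known as a C/D-type guide for U2 small nuclear RNA, had the highest mean level in both systems. It lay between 231.2 and 580.5 scaled TPM in the 17 hippocampus libraries, with a median of 408.9, and between 54.5 and 243.5 in the 14 HT-22 libraries, with a median of 98.8. The other members of highest mean level were Scarna10, Snora73b, Snora74a, Scarna6, Scarna13, Snora23, Scarna9, Snora73a and Snora34. Scarna10, a scaRNA for U5 known as U85 that joins both box types, ran from 0 to 577.7 in hippocampus and from 5.55 to 135.7 in HT-22 cells. Snora73b was listed at 0 in 4 libraries and reached 725.2 in another. Among the members, 15 were listed at 0 in at least 1 library, which made 66 of 1457 values. Values of 0 were entered as measured, and a fit that treats them as missing is given with the alternatives.

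**Figure D1:**
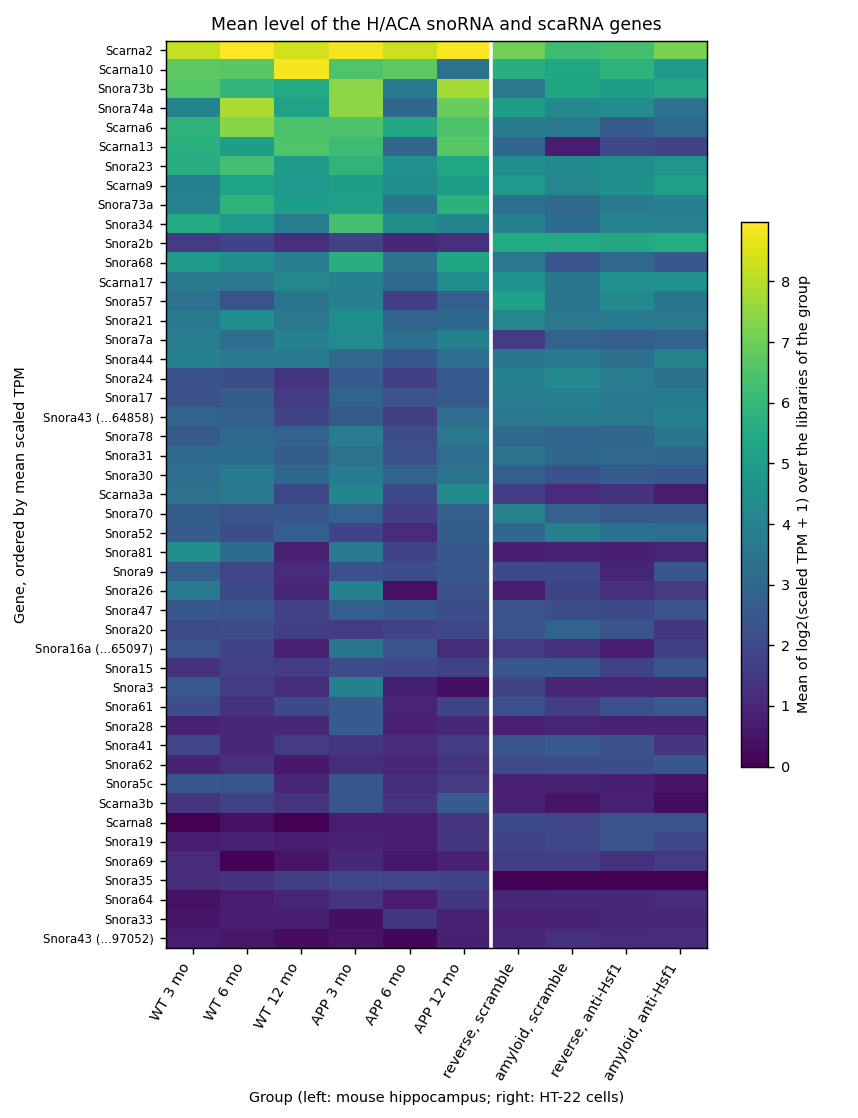
Rows are the 47 genes, ordered by mean scaled TPM, and columns are the 6 hippocampus groups (left of the white line) and the 4 HT-22 groups. Colour gives the mean of log2(scaled TPM + 1) over the libraries of a group. Scarna2 is at the top in every group but the WT mice of 12 months, Snora2b is bright in HT-22 groups, and Snora35 is at 0 there.

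The members varied more between libraries of 1 group than most genes. The median standard deviation within groups, on the log2(scaled TPM + 1) scale, was 0.92 for the 40 members tested in hippocampus and 0.24 for all genes tested. In HT-22 cells it was 0.70 for 46 members and 0.29 for all genes. Other genes under 300 bases had 0.69 in hippocampus and 0.68 in HT-22 cells. Snora28, which lies in Eif5 and was singled out after its values were seen, shows the extreme case. It stood at 64.9 in 1 APP library of 3 months and at 0.521 to 1.48 in the other 30 libraries. Without its highest library, Snora28 would fall below the limit of 1 TPM, as would Snora33, Snora35 and Snora43 (ENSMUSG00000097052).

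The levels in hippocampus and in HT-22 cells were set side by side as a description, over the mean of the group means. Of the 46 members above 0 in HT-22 cells, 22 were higher there and 24 lower, with a median log2 ratio of -0.07. The ratio depends on the scaling, since the median over members was 0.83 on deposited TPM, and the sign differed for 5 members. Of the scaRNAs, 7 of 9 were lower in HT-22 cells, 1 of which (Scarna9) was higher on deposited TPM, and Scarna8 and Scarna17 were higher. Scarna13, a tandem H/ACA scaRNA, had a mean of 67.3 in hippocampus and 6.33 in HT-22 cells (10.6-fold). Scarna6 had 95.8 and 9.88 (9.69-fold), and Snora81 had 12.1 and 0.821 (14.7-fold), with libraries that overlapped in all 3 cases.

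Snora2b was the only member whose HT-22 libraries lay wholly above the hippocampus libraries (3 members did so on deposited TPM), and none lay wholly below. Among all genes at or above the same mean of 1 TPM, 17.7% lay wholly above and 30.9% wholly below, above the members' counts of 1 and 0 of 46. Snora2b, singled out after its values were seen, ran from 30.7 to 57.7 in the 14 HT-22 libraries. In hippocampus it ran from 0.757 to 7.15 in 15 libraries and was listed at 0 in the other two. The means were 44.6 and 2.19, a 20.4-fold difference. Its neighbour Snora34 in the same host went the other way, with means of 14.2 in HT-22 cells and 34.4 in hippocampus. The host Kansl2, a subunit of the NSL histone acetyltransferase complex, had means of 67.4 in HT-22 cells and 14.7 in hippocampus. The ratios of Kansl2 and Snora2b thus had the same sign, and that of Snora34 the opposite one. Snora2b overlaps an exon of at least 1 Kansl2 transcript, while Snora34 lies in an intron. How many Kansl2 reads were counted for Snora2b is not known, and their part in its 20.4-fold difference was not tested.

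Snora35, a brain-restricted H/ACA RNA with no known target, was listed at 0 in all 14 HT-22 libraries. In hippocampus it was listed at 0 in 1 WT library of 3 months and ran from 0.740 to 4.71 in the other 16. Its host Htr2c, a serotonin receptor gene, had a mean of 27.6 in hippocampus and 0.00321 in HT-22 cells. Htr2c is also a choroid plexus marker, and the summed level of 10 choroid plexus markers ran from 67.8 to 3390 in hippocampus. In HT-22 cells that sum was 27.7 to 78.4, with 8 of the 10 markers under a mean of 1. Neuronal markers were low in HT-22 cells too, with 7 of 8 under a mean of 1, Rbfox3 and Snap25 among them.

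**Figure D2:**
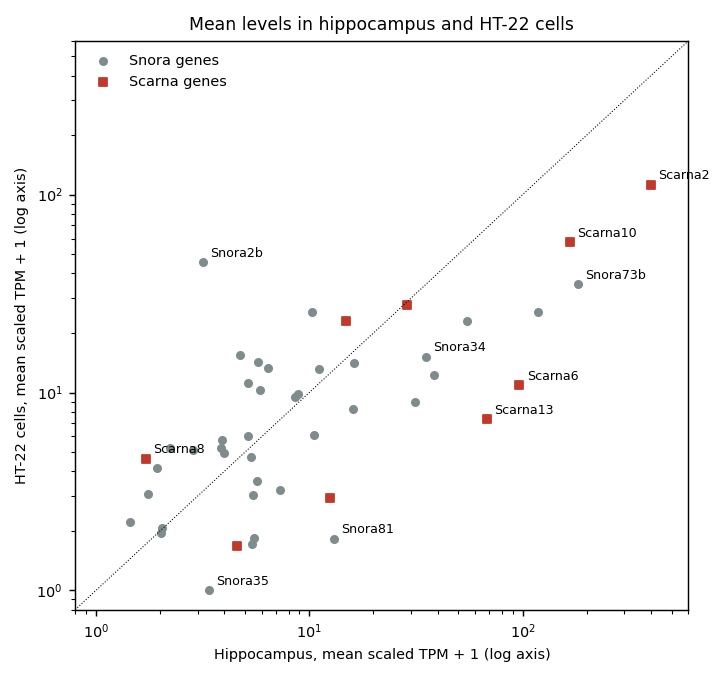
Each point is a gene, placed at its mean scaled TPM plus 1 in hippocampus (x axis, log) and in HT-22 cells (y axis, log), as the mean of the group means. The dotted line marks equal levels. Snora2b (2.19 and 44.6) lies far above the line, Scarna6, Scarna13 and Snora81 lie far below it, and Snora35 lies at 0 in HT-22 cells.

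Differences between groups were tested with limma on log2(scaled TPM + 1), with p-values adjusted by the Benjamini-Hochberg method over all genes tested, and a gene was called at an adjusted p below 0.05. In hippocampus 40 members reached a mean of 1 TPM and were tested, and the other 7 were below it there. In HT-22 cells 46 were tested, all but Snora35. Comparisons that use the same group share its libraries and are not independent.

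Between 3 and 12 months in APP mice, 2 of 40 members were called, both lower at 12 months. Of all 17840 genes tested, 3.01% were called and 1.24% were called lower. They were Snora34 and Snora3. In the 3 APP libraries of 3 months Snora34 was at 72.8, 109.6 and 61.0 scaled TPM, and at 12 months it was at 17.6, 17.6 and 12.0. The groups did not overlap. On the log2 scale it fell by 2.27 (SE 0.34, limma adjusted p = 0.0032). At 6 months the APP libraries were at 13.2, 27.7 and 25.7, nearer to those of 12 months.

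In WT mice Snora34 was at 34.7 and 54.4 at 3 months, 19.3, 27.0 and 41.4 at 6 months, and 9.22, 19.3 and 11.3 at 12 months. The WT libraries of 12 months again lay below those of 3 months, with a log2 difference of -1.70 (SE 0.38), but this did not pass over all genes (limma adjusted p = 0.22). The change with age was not shown to differ between genotypes (limma F test of genotype by age, adjusted p = 0.39). Sex differed between ages in WT only, so that test cannot separate genotype by age from sex. Median coverage of Snora34 was 84.3 reads per base in APP mice of 3 months and 15.5 in those of 12 months, the same direction as the scaled values. Coverage is not scaled between libraries and is no separate measure. The median coverage of all members was also higher at 3 months, at 5.90 to 15.03 over the APP libraries, against 3.91 to 5.94 at 12 months. The host Kansl2 moved little, with -0.07 on the log2 scale (SE 0.16, limma adjusted p = 0.90) in APP mice. Snora2b from the same host had a log2 value of -0.58 there and was not called.

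Snora3 is an H/ACA RNA in the ribosomal protein gene Rpl27a and overlaps an exon of at least 1 Rpl27a transcript. How many Rpl27a reads were counted for Snora3 is not known. It was at 14.2, 16.9 and 12.0 in APP mice of 3 months and at 0.947, 0.0203 and 0.0387 in those of 12 months. These groups lay far apart. On the log2 scale it fell by 3.58 (SE 0.72, limma adjusted p = 0.0159), and its median coverage was 16.2 reads per base at 3 months and 0.0356 at 12 months. Without replicate 2 or replicate 3 of the APP mice of 12 months the adjusted p was 0.0668 or 0.0751, while the log2 change stayed between -3.89 and -3.42 over the 6 fits that each left out 1 library. Rpl27a itself moved by 0.23 on that scale (SE 0.19, limma adjusted p = 0.62). In APP mice of 6 months Snora3 was at 0.917, 1.02 and 0.361. The WT libraries were mixed, at 7.90 and 2.56 at 3 months, 0.287, 10.8 and 0.825 at 6 months, and 5.51, 0.514 and 0.206 at 12 months.

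Over all 40 tested members the median log2 change between these ages in APP mice was -0.20, with 15 above 0 and 25 below, against a median of 0.00 for all genes. Libraries of the 2 ages did not overlap for 5 members lower and 1 member higher at 12 months, against 11.1% and 10.9% of all genes. The first count is near the background and the second is below it. Of the members not called, Snora16a (ENSMUSG00000065097), which overlaps an exon of at least 1 transcript of its host Snhg12, had the lowest p. It was at 8.80, 9.98 and 12.3 at 3 months and 0.675, 1.04 and 2.31 at 12 months (limma adjusted p = 0.13). A fit on these 2 groups alone called it beside Snora34 and Snora3 (limma adjusted p = 0.0190). Markers of other cells moved in the same comparison. Of 8 oligodendrocyte markers 6 were called lower at 12 months, with summed levels of 2140 to 3556 at 3 months and 1509 to 1695 at 12 months. Of 7 striatal markers 2 were lower (80.4 to 266.5 and 51.3 to 68.8), and of 6 thalamic markers 1 was lower (95.1 to 723 and 72.3 to 83.5). Of 7 markers of hippocampal excitatory neurons 3 were higher (130.6 to 267 and 322 to 342), and of 8 microglial markers 4 were higher (140.8 to 164 and 312 to 338). Of 7 astrocyte markers 1, Gfap, was higher (1315 to 1510 and 2122 to 2353). Of 11 immediate-early genes tested, 1 was higher and 2 lower among Egr2, Fos and Jun. The part of these cell types in the values of Snora34 and Snora3 was not tested. In bulk RNA, fewer cells of a type and less RNA per cell cannot be told apart.

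**Figure D3:**
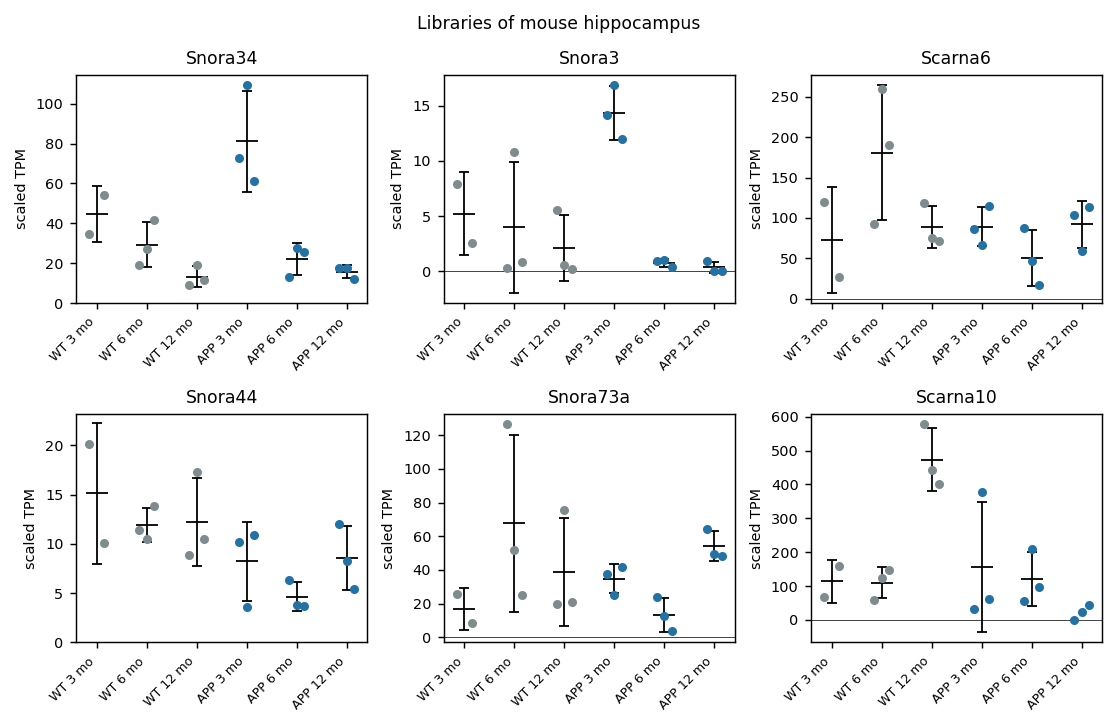
Each point is a hippocampus library, grey for WT and blue for APP, with scaled TPM on the y axis, and bars give the mean and SD of the group (left out where a library was listed at 0). Snora34 and Snora3 are high in the 3 APP libraries of 3 months. Scarna6, Snora44 and Snora73a are low in APP libraries of 6 months beside WT, and Scarna10 is high in WT libraries of 12 months.

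At 6 months no member was called between APP and WT mice, while 1.57% of all genes were. Still, 12 of 40 members had an unadjusted p below 0.05, all lower in APP, where 7.43% of all genes were lower at that p. The libraries of 9 members lay wholly lower in APP and none wholly higher, against 8.27% and 13.2% of all genes. The median log2 difference of the members was -0.78, with 32 of 40 below 0, and that of all genes was 0.04. The median of 50 Snord genes was -0.01 and that of 1123 other genes under 300 bases was -0.05. At an unadjusted p below 0.05, 147 of those 1123 genes were lower in APP and 59 were higher. For the 50 Snord genes these counts were 7 and 1, and for the 36 hosts of members tested they were 9 and 2. Lower values at that p were thus not particular to the members. No test of the group of members as a whole was made. On deposited TPM the members' median was -0.21 and that of all genes 0.60. Both medians were thus higher on deposited than on scaled TPM.

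The 3 members of lowest p at 6 months, given here as values, were Snora44, Scarna6 and Snora73a. Snora44, 1 of 3 members hosted by Snhg12, was at 6.34, 3.82 and 3.71 in APP and at 11.4, 10.5 and 13.9 in WT. The difference on the log2 scale was -1.22 (SE 0.37, limma adjusted p = 0.10). Scarna6, which lies in an intron of the autophagy gene Atg16l1, was at 87.1, 46.8 and 17.3 in APP and at 93.0, 259.7 and 190.5 in WT (log2 -1.98, limma adjusted p = 0.11). Snora73a was at 23.8, 12.7 and 3.49 in APP and at 126.5, 51.9 and 25.05 in WT (log2 -2.28, limma adjusted p = 0.11). In all 3 genes the APP libraries lay below the WT libraries, by a narrow margin in Scarna6 and Snora73a. On deposited TPM the libraries of Scarna6 and Snora73a overlapped between APP and WT. Snora73a passed on that scale (limma adjusted p = 0.0495), where 10339 genes were called.

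Snora73b, the other U17 gene, was at 0, 87.7 and 22.5 in APP and at 0, 725.2 and 291.9 in WT, so its libraries overlapped. With the values of 0 treated as missing, which removes 1 library from each group, it was called (log2 -3.34, limma adjusted p = 0.0235). The host transcript Snhg3 had a log2 difference of -1.83 (SE 0.53, limma adjusted p = 0.092) and Rcc1 had 0.43. Snhg3 and the 2 U17 genes overlap, and the tables do not show which reads each received. Scarna2 was at 363, 298.6 and 259.1 in APP and at 580.5, 481.6 and 455.8 in WT (log2 -0.73, limma adjusted p = 0.13). Scarna10 did not share this order, at 55.6, 208.4 and 97.6 in APP and 58.9, 123.3 and 147.3 in WT.

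The summed scaled TPM of the members was 527 to 952 in APP mice of 6 months and 1258 to 2557 in WT mice of that age. The share of TPM in protein-coding genes was higher in these APP libraries than in the WT libraries, as given above, and its part in the members' values was not tested. Sex differed too between these groups. Choroid plexus markers ran from 67.8 to 1270 in APP and from 1550 to 1835 in WT, with no defining marker under a mean of 1 in either group. The hippocampal neuron marker C1ql2 was called higher in APP and the globin gene Hbb-bs lower. Their part was not tested.

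At 3 months no member was called between APP and WT (0.275% of all genes were), and 4 of 40 had an unadjusted p below 0.05, all higher in APP (6.46% of all genes). Libraries of 9 members lay wholly higher in APP, against 13.7% of all genes. The median log2 difference was 0.49, but it was 0.05 without the second WT library and 1.02 without the first, so 1 library decides its size. In the same comparison 1 of 7 markers of hippocampal excitatory neurons (Fibcd1) was called lower in APP, with summed levels of 130.6 to 267 in APP and 353 to 354.4 in WT. The globin gene Hbb-bs was called higher, and thalamic markers summed to 95.1 to 723 in APP and 71.2 to 97.9 in WT. The part of these cells was not tested. That second WT library held low values of several members, with Snora74a at 1.25 and 119.4 in the other WT library, and Scarna6 at 26.8 and 119.6. The members of lowest p were Scarna9, Snora78 and Scarna2. Scarna9, known as a C/D-type guide for U2, was at 38.2, 28.9 and 26.6 in APP and 23.9 and 7.68 in WT (limma adjusted p = 0.26). Snora78, hosted by Snhg9, was at 8.90, 18.5 and 11.7 in APP and 7.84 and 2.79 in WT (limma adjusted p = 0.27). Scarna2 was at 503.7, 390.7 and 468.9 in APP and 350.3 and 243.8 in WT (limma adjusted p = 0.34).

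At 12 months no member was called either (0.443% of all genes were), and 4 had an unadjusted p below 0.05, 3 higher and 1 lower in APP. The background shares at that p were 4.69% and 2.3%. Libraries lay wholly higher in APP for 6 members and wholly lower for 1, against 8.78% and 6.43% of all genes. The median log2 difference was 0.33, with 33 of 40 above 0, against a median of 0.00 and 50.71% above 0 for all genes. For the 50 Snord genes the median was 0.16, with 60% above 0. Sex differed too between these groups. The member of lowest p was Scarna10. It was at 577.7, 441.2 and 401.4 in WT mice of 12 months, above every other library of the series, and at 0, 23.8 and 44.2 in APP mice of that age. The log2 difference was -5.50 (SE 1.24, limma adjusted p = 0.11). The WT libraries were thus far from the APP libraries, yet Scarna10 varied widely elsewhere too, at 31.1, 378.1 and 61.1 in APP mice of 3 months. Its host Ncapd2, a condensin subunit, had a log2 difference of -0.23 (SE 0.23). At this age 1 of 7 astrocyte markers (Gfap) was called higher in APP, and its part was not tested.

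Snora43 (ENSMUSG00000064858) was at 5.56, 12.1 and 8.21 in APP mice of 12 months and 3.10, 1.25 and 4.04 in WT. Its bases all lie within the other Snora43 gene, and how reads were split between them is not known. Scarna3a, in an intron of the ubiquitin ligase gene Cop1, was at 26.1, 10.7 and 22.7 in APP and 12.5, 3.22 and 0 in WT. Neither Snora43 (ENSMUSG00000064858) nor Scarna3a passed (limma adjusted p = 0.50 for both).

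With age in WT mice, where sex differed between 3 and 12 months, no member was called (0.0617% of all genes were), and 4 had an unadjusted p below 0.05, against 8.32% of all genes. Libraries of 12 months lay wholly higher for 2 members and wholly lower for 7, against 12.0% and 14.6% of all genes. The median log2 change of the members was -0.25 and turned to 0.30 without the first WT library of 3 months. The globin gene Hbb-bs was called higher at 12 months, and its part was not tested. After Snora34, the members of lowest p were Snora26 and Snora81. Snora26, in the noncoding host Dancr, was at 16.6 and 7.78 at 3 months and at 4.37, 0.211 and 0.259 at 12 months (limma adjusted p = 0.33). Snora81, in the translation initiation factor gene Eif4a2, was at 30.8 and 15.1 at 3 months and at 1.12, 0.398 and 0.872 at 12 months (limma adjusted p = 0.54). Snora26 and Snora81 each overlap an exon of at least 1 host transcript, and how many host reads they received is not known. Each also has another close match in the genome. Both genes were lower in every library of 12 months. A fit on these 2 groups alone called Snora81 (limma adjusted p = 0.0155).

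The genotype by age F test called no member (0.499% of all genes were), and 11 of 40 had an unadjusted p below 0.05, against 15.8% of all genes. Sex differed between ages in WT but not in APP libraries, so this interaction and sex cannot be told apart. The lowest adjusted p was 0.11, for Scarna2, followed by Snora78 and Snora73a at 0.15 and 0.17. Without the second WT library of 12 months, Scarna2 passed (limma adjusted p = 0.0340).

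**Figure D4:**
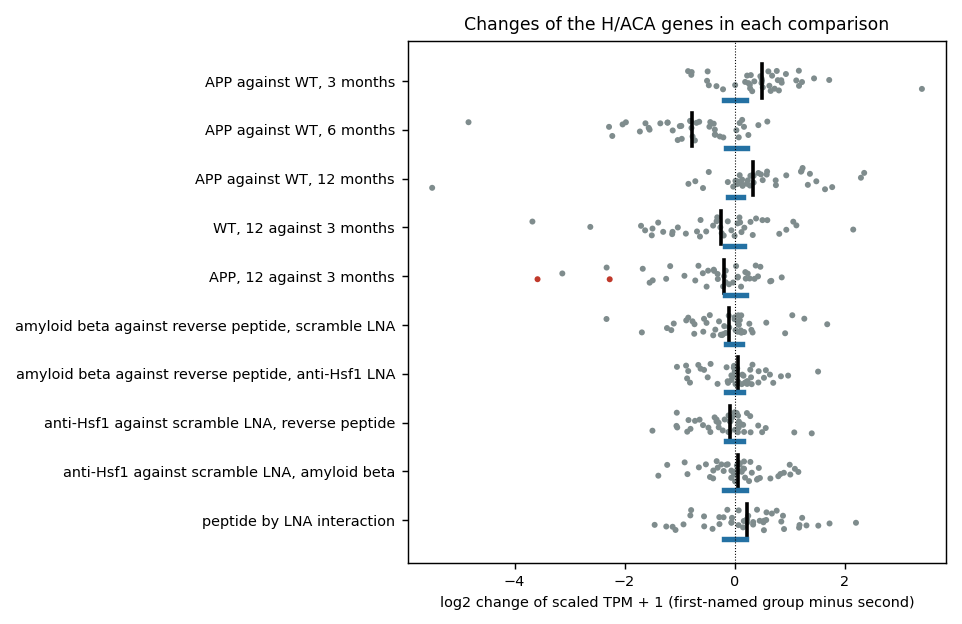
Each point is a tested member, placed at its log2 difference of scaled TPM + 1 in each comparison, red where called. Black lines mark the median of the members and blue bars the range between the quartiles of all genes tested. The members' median lies at -0.78 in APP against WT at 6 months and between -0.11 and 0.22 in the HT-22 comparisons, and the 2 red points are Snora3 and Snora34 in APP mice.

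In HT-22 cells no member was called in any of the 5 comparisons. The share of all 17291 genes that was called was 0.0% in 4 of them and 0.0231% for anti-Hsf1 against scramble LNA under amyloid beta. At an unadjusted p below 0.05 there were 3 of 46 members for amyloid beta under scramble LNA, against 4.99% of all genes, and 1 for amyloid beta under anti-Hsf1 LNA, against 4.63%. There was 1 for anti-Hsf1 LNA under reverse peptide (3.71% of all genes), 3 for anti-Hsf1 LNA under amyloid beta (8.95%) and 1 for the peptide by LNA interaction (5.18%). These shares are near the background. The median log2 differences of the members, in the same order, were -0.11, 0.05, -0.09, 0.05 and 0.22, and those of all genes were between -0.01 and 0.00. On deposited TPM the medians for amyloid beta under anti-Hsf1 LNA, for anti-Hsf1 LNA under amyloid beta and for the interaction were -0.35, -0.45 and -0.38, where those of all genes were -0.52, -0.62 and -0.68. The scramble groups were uneven in 12 immediate-early genes. Their summed level ran from 94.1 to 1024 with reverse peptide and from 75.4 to 967 with amyloid beta. With anti-Hsf1 LNA it ran from 106.5 to 117.6 and from 87.2 to 97.75. The part of this spread in the members' values was not tested.

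Scarna2 had the lowest p of the members in all 5 comparisons, which share their libraries. With scramble LNA it was at 243.5, 91.5, 124.8 and 113.3 under reverse peptide and at 69.5, 90.1, 77.9 and 54.5 under amyloid beta. The amyloid beta libraries lay below the others, by a narrow margin. With anti-Hsf1 LNA it was at 79.3, 61.6 and 106.1 under reverse peptide and at 147.7, 178.6 and 113.7 under amyloid beta, and here the amyloid beta libraries lay above. On deposited TPM the Scarna2 libraries of the peptides overlapped under either LNA. Of all 17291 genes, 254 lay wholly lower with amyloid beta under scramble LNA, and 1557 wholly higher under anti-Hsf1 LNA. The interaction of Scarna2 on the log2 scale was 1.72 (SE 0.42, limma adjusted p = 0.65), and the adjusted p of its differences ran from 0.42 to 0.99.

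Scarna17, a short C/D-type scaRNA, had its lowest levels with amyloid beta and scramble LNA, at 7.52, 17.1, 9.24 and 9.89. It was at 39.5, 35.6, 20.7 and 10.6 with reverse peptide and scramble, at 24.9, 11.2 and 39.0 with reverse peptide and anti-Hsf1, and at 39.5, 25.1 and 12.7 with amyloid beta and anti-Hsf1. All groups overlapped. The interaction values of Scarna9 and Snora52 ranked next after Scarna2. Scarna9 ran from 11.9 to 50.3 with reverse peptide and scramble, and was at 21.2, 26.7, 10.1 and 10.7 with amyloid beta and scramble. With anti-Hsf1 LNA it was at 14.95, 23.6 and 29.4 under reverse peptide and 58.9, 31.2 and 19.0 under amyloid beta. The amyloid beta libraries of Scarna9 overlapped those of the reverse peptide under either LNA. Snora52, in the ribosomal protein gene Rplp2, was at 4.86, 5.88, 8.06 and 10.2 with reverse peptide and scramble and at 7.76, 15.6, 16.3 and 19.3 with amyloid beta and scramble. Under anti-Hsf1 LNA its values were 6.94, 15.2 and 6.08 with reverse peptide and 8.91, 5.31 and 13.0 with amyloid beta.

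The remaining members of lowest p in HT-22 cells were close to this spread. Scarna6 was at 5.78 to 23.1 with reverse peptide and scramble and at 2.22 to 8.36 with reverse peptide and anti-Hsf1. Snora19, in Eif3a, was at 1.42 to 4.11 and at 3.16 to 5.44 in those groups. Both pairs of groups overlapped. Snora44 was at 6.47 to 13.3 with reverse peptide and anti-Hsf1 and at 13.7 to 16.3 with amyloid beta and anti-Hsf1. Snora41, in Eef1b2, was at 2.19 to 10.3 with amyloid beta and scramble and at 0, 2.98 and 3.34 with amyloid beta and anti-Hsf1. On deposited TPM, 6 members were called lower with anti-Hsf1 than with scramble LNA under amyloid beta, Snora41 among them. There 8766 genes were called and the median over all genes was -0.62, and the coding share was 30.1% to 42.1% with amyloid beta and anti-Hsf1 and 51.7% to 61.8% with amyloid beta and scramble.

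**Figure D5:**
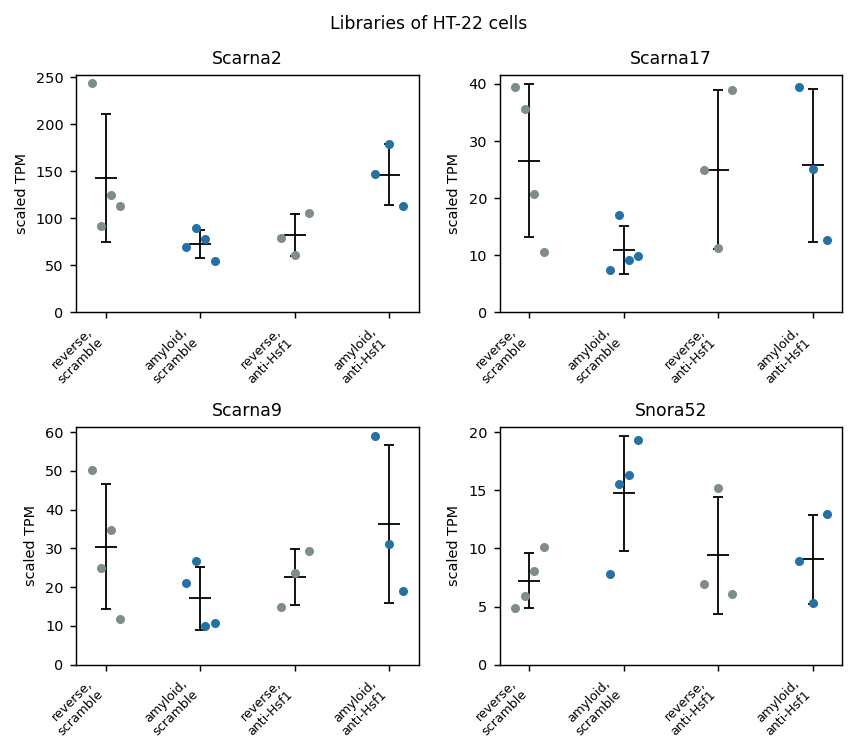
Each point is an HT-22 library, grey for reverse peptide and blue for amyloid beta, with scaled TPM on the y axis, and bars give the mean and SD of the group. Scarna2 is lower with amyloid beta under scramble LNA (54.5 to 90.1 beside 91.5 to 243.5) and higher under anti-Hsf1 LNA (113.7 to 178.6 beside 61.6 to 106.1). Neither difference was called, and on deposited TPM the libraries overlapped in both cases.

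The remaining scaRNAs were listed at 0 in several libraries. Scarna8 and Scarna3b had low levels in both systems, while Scarna13 had a mean of 67.3 in hippocampus. Scarna8, a scaRNA in an intron of Haus6, was listed at 0 in 9 hippocampus libraries and reached 4.34 in 1 APP library of 12 months, while it ran from 1.41 to 6.32 in HT-22 cells. Scarna3b, in Dcaf5, ran from 0 to 10.7 in hippocampus and from 0 to 3.39 in HT-22 cells. Scarna13, in an intron of Snhg10, was listed at 0 in 1 hippocampus library and in 6 HT-22 libraries. In hippocampus it was otherwise between 2.50 and 138.7. Its host Snhg10 was called higher in APP mice at 12 than at 3 months (log2 0.97, limma adjusted p = 0.0337), where Scarna13 had a log2 value of 0.46 and was not called.

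The proteins that carry these RNAs were measured as mRNA in the same libraries. Of the 4 core genes, Nhp2 was called lower in APP than in WT at 6 months, with APP mice at 16.1 ± 2.5 scaled TPM and WT mice at 27.4 ± 3.7 (mean and SD of 3 libraries each). Its log2 difference was -0.74 (SE 0.15, limma adjusted p = 0.0310). Nop10 had -0.51 (limma adjusted p = 0.16), while Gar1 and Dkc1, the pseudouridine synthase itself, had 0.28 and 0.00. No core gene was called in any other comparison. Among 6 genes of H/ACA assembly, 5 of 3' end trimming, 5 of Cajal bodies and 12 stand-alone pseudouridine synthases, all of which were tested, none was called in any comparison. The telomerase RNA Terc, which ends in an H/ACA domain, was at 0.427 to 5.91 in hippocampus and 6.10 to 23.0 in HT-22 cells. It was not called in any comparison. Its interaction of peptide and LNA was 1.23 on the log2 scale (SE 0.44, limma adjusted p = 0.82), with means of 15.2 and 10.6 for reverse peptide and amyloid beta under scramble LNA and 7.60 and 14.7 under anti-Hsf1 LNA.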

How the data were processed

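Long-RNA gene tables of 17 hippocampus and 14 HT-22 libraries were used. Per the file headers, the authors deposited TPM and a coverage signal (reads per base) for each gene, 1 table per library. The submitters' processing notes name cutadapt 1.18, BWA 0.7.17, HISAT2 2.1.0, StringTie 1.3.4d, bedtools 2.26.0 and FastQC with mm10/GRCm38, with no roles. TPM sums to nearly the same total in each library, so a few abundant noncoding RNAs shift all other genes. TPM was therefore divided by a median-of-ratios factor over 14020 genes above 0 in all 31 libraries. The number of reads behind a value is unknown, so no count model was run and no interval was given for single libraries. In each system 1 fit with limma 3.58.1 (R 4.3.3; trend and robust moderation) was made on log2(scaled TPM + 1), for 17840 genes in hippocampus and 17291 in HT-22 cells with a mean TPM of at least 1. A change on this scale understates that of low genes. Calls used a Benjamini-Hochberg adjusted p below 0.05. The fit was tested on simulated data.

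All 47 members have the same coordinates in GENCODE M21, which gave the hosts. Sequences came from GRCm38. The members, gene lists and tests were chosen with earlier results of these data known. Named were, for each comparison, called members or the 3 of lowest p, the 10 members of highest mean level, every Scarna gene, Snora73a, Snora73b, Snora35, their hosts, the H/ACA core genes and Terc. Snora2b and Snora28 were added after their values were seen. Libraries with the same replicate number did not deviate together in the median, which cannot exclude pairing, and no block was used in the tests. Alternatives were deposited TPM, factors within each system, a pseudocount of 0.1, no filter, each comparison's groups alone, a replicate block, leaving out each library, and values of 0 as missing. Fewer reads on a short gene make its value less certain. Sequences on chromosome 18 are not printed. A cell type marker result for APP against WT at 12 months is not reported here.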

Additional observations from a re-analysis of the deposited data

Results flagged for a closer look

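In the HT-22 groups of 4 libraries, 48 sets of values of named genes were searched for a library that stands apart from the other three, and 4 such values were found. Chance gives about 1 in 20 for normally distributed values. The rate for skewed values, or where the other libraries are at 0, was not worked out. Scarna13 was at 5.73 scaled TPM in 1 library with amyloid beta and scramble LNA and listed at 0 in the others. Snora73a was at 4.60 in 1 library of that group, below 8.43 to 8.94 in the others. Snora16a (ENSMUSG00000065097) was at 10.7 in 1 library with reverse peptide and scramble LNA, and at 0.654 to 1.12 in the others. Snora3 was at 18.4 in 1 library of that group, and at 0.388 to 1.41 in the others.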

How the results depend on the processing

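The count of called members kept within 1.5 times of its main value in 153 of 162 alternative fits. On deposited TPM it was 1 for APP against WT at 6 months, 1 for the genotype by age F test, 6 for anti-Hsf1 against scramble LNA under amyloid beta and 1 for the peptide by LNA interaction, where the main counts were 0. On that scale the median of all genes moved by 0.60, 0.29, -0.62 and -0.68. Values of 0 as missing, added after seeing the data, gave 1 at 6 months, and the groups alone gave 1 for WT age and 3 for APP age, Snora16a (ENSMUSG00000065097) being the one added. Leaving out 1 library gave 1 to 2 for APP age, 0 to 1 for the F test and 0 in each other comparison. Snora3 was the member lost. Where this left WT mice of 3 months with 1 library, that library was assumed to vary like the other groups. With a replicate block the counts were 2 for APP age and 0 elsewhere. Libraries with the same number did not deviate together in the median, with a correlation of -0.008 in hippocampus and 0.016 in HT-22 cells. Single HT-22 pairs with the same number ran from -0.23 to 0.60, and those with different numbers from -0.57 to 0.58. No direction of a called member reversed. The median member had under 4.1 reads per base in each system, and whether coverage bears on the number of calls was not tested.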

Other observations

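The first library with reverse peptide and scramble LNA had the highest summed level of the members in HT-22 cells, at 965 scaled TPM. The lowest of its group was at 544. It held the highest Scarna2 (243.5), Scarna10 (135.7), Scarna13 (34.1) and Snora57 (50.2) of that system. Snora57, a member with no host on its strand, was listed at 0 in 2 HT-22 libraries and in 3 hippocampus libraries.

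Snora81 was at 13.8 to 39.2 scaled TPM in 8 hippocampus libraries and at 0.380 to 2.07 in the other 23 libraries, with nothing between. Over all members, 5 of 47 (10.6%) had a gap of at least 4-fold on scaled TPM plus 1 between neighbouring libraries, against 14.9% of all genes at or above a mean of 1 TPM and 5.34% of other genes under 300 bases.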
